A study of Mus musculus with 2 samples.

Results

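Lysosomal proteases and their inhibitors were followed in 8 of the 31053 genes in the count matrices, matched by symbol. The genes were the cysteine cathepsins Ctsb, Ctsk, Ctsl and Ctsz, the aspartic cathepsin Ctsd, the asparaginyl endopeptidase Lgmn, and the cysteine protease inhibitors Cst3 and Ctla2a. They were chosen with their levels, shares of cells, co-occurrence and ratios in these libraries known, so the values of that kind given here are descriptions and no test was made on them. All 8 reached 10 UMIs (unique molecular identifiers, each counting 1 captured transcript) over both libraries, Lgmn through the untreated library, where 13 of its 15 UMIs lay.

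The study profiled single dermal cells of C57BL/6 PdgfraDreER-tdTomato mice aged 8 week. In this line tamoxifen lets a Dre recombinase driven by the Pdgfra gene switch on tdTomato, so the labelled cells are those that expressed Pdgfra when tamoxifen was given, together with their descendants. Live CD45- tdTomato+ cells were sorted from the dermis of untreated (UT) skin or of skin given imiquimod (IMQ, a Toll-like receptor agonist that causes psoriasis-like inflammation) for 7 days, with 1 library per group and no number of mice stated for either. With 1 library a group nothing separates the treatment from the mouse, the sort or the library preparation, so every interval below covers counting error only.

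Cathepsins are proteases of endosomes and lysosomes that degrade internalised proteins, and several are also secreted into the matrix. The papain-type members use an active-site cysteine and are made as inactive precursors whose N-terminal propeptide blocks the active site until it is removed. In connective tissue they take part in collagen turnover, and secreted cystatins and intracellular inhibitors hold them in check.

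The catalytic stretch shows what the 4 papain-type members have in common. Each line gives 30 coding bases of the GENCODE M21 transcript (GRCm38), with the codon of the catalytic cysteine in capitals.
Ctsb: tcctgcggctctTGTtgggcatttggggca
Ctsk: cagtgtggttccTGTtgggctttcagctct
Ctsl: cagtgcgggtctTGTtgggcgtttagcgca
Ctsz: tactgtggttccTGCtgggcccacggcagc
The stretches lie at chr14:63135705-63136418 for Ctsb, where they join 2 exons, at chr3:95502585-95502614 for Ctsk, at chr13:64367060-64367089 for Ctsl and at chr2:174438181-174438210 for Ctsz, with Ctsl and Ctsz on the minus strand. Ctsb and Ctsk each matched Ctsl at 23 of the 30 bases, and Ctsz at 16.

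Ctla2a encodes a small inhibitor whose sequence resembles a cathepsin propeptide. Translated from GENCODE, its 137 residues aligned to residues 5 to 132 of Ctsl (43 of 120 aligned residues identical, 35.8%) and to residues 7 to 133 of Ctsk (43 of 115, 37.4%), in each case ending before the catalytic cysteine at residue 138 of Ctsl and 139 of Ctsk. The following 60 coding bases are the best match of that length within the longest gap-free block of the Ctsl alignment. Capitals mark the bases that both genes share.
Ctla2a: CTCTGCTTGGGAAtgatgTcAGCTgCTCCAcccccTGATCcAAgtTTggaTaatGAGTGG
Ctsl: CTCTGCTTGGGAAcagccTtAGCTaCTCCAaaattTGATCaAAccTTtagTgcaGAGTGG
They cover codons 21 to 40 of Ctla2a (chr13:60935997-60936056, minus strand) and codons 10 to 29 of Ctsl (chr13:64369067-64369126, minus strand), and 39 of the 60 bases were identical. Where the Ctsl propeptide starts was not determined, so part of the stretch may lie before it. None of the 50-base words in the last 300 bases of the coding transcripts of Ctsb, Ctsk, Ctsl, Ctsz, Ctsd, Lgmn and Cst3 occurred in another gene. The coding Ctla2a transcript shared 3 of its 251 words with other genes, none of them its paralog Ctla2b. Some annotated Ctla2a transcripts of other types did share words with Ctla2b, up to 42 of 251.

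The genes themselves are spread over 6 chromosomes (GRCm38). Ctsl lies at chr13:64359337-64370890 and Ctla2a at chr13:60934155-60936625, both on the minus strand, while Ctsb is at chr14:63122462-63145923 and Ctsk at chr3:95499256-95509362, both on the plus strand. The others are on the minus strand: Ctsz at chr2:174427493-174439039, Cst3 at chr2:148871722-148875692, Ctsd at chr7:142375911-142388038 and Lgmn at chr12:102394084-102439813. Ctsb, Ctsl and Ctsz overlap genes of the other strand, of which Fdft1 had 19 UMIs in UT and 0 in IMQ, Gm47123 had 2 and 0, and Nelfcd had 12 and 5. The read-through genes Gm49391 and Gm49393, which overlap Ctla2a on its own strand, and Gm49369, which overlaps Ctsd, had 0 UMIs in both libraries. Ctla2b, 90.3% identical to Ctla2a over 113 residues, had 1 UMI in each library, but the whole end of its transcript is shared with Gm49391, so its count is uncertain.

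The promoters of the 2 genes with higher levels in IMQ, Ctsk and Ctla2a, are shown so that their sequences can be compared. Both run from 250 bases before to 50 bases after the transcript start in RefSeq (GRCm38.p6), with any match to TGANTCA, the motif bound by AP-1 factors, in capitals.
Ctsk: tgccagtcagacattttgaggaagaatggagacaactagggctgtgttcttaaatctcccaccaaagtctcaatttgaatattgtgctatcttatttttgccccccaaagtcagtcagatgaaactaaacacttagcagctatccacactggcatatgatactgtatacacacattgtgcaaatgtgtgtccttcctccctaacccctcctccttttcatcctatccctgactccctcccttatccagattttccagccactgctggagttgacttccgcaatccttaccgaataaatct
Ctla2a: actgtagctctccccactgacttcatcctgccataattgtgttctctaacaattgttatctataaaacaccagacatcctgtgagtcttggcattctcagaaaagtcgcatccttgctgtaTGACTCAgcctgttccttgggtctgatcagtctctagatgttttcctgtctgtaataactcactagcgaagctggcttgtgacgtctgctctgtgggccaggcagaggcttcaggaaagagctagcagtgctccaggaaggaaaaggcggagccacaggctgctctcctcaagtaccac
They span chr3:95498960-95499259 (plus strand) and chr13:60936576-60936875 (minus strand). The motif occurred once in the Ctla2a promoter and in none of the other members' promoters in the table, and 7.81% of all 32851 promoters of this length held it on either strand. CACGTG, the E-box core read by the TFEB family of lysosomal regulators, occurred at 2 places in the Ctsd promoter, once in that of Ctsl and once at 1 of 2 Lgmn starts, against 7.15% of all promoters, and 1 of the Ctsd matches lay inside a TCACGTGA, which 0.974% of promoters held.

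The UT library held 1033 of 1415 deposited barcodes after filtering to 200 to 5000 genes, at most 5% mitochondrial UMIs and removal of likely doublets, and the IMQ library 548 of 5047. The study's methods give more cells after this filter for both groups, and for IMQ more than all barcodes of the deposited matrix, so whether this matrix is the one clustered in the study could not be settled. They carried 1087337 and 442157 UMIs, with medians of 738 and 655.5 UMIs and of 389 and 273 genes a cell, and shared no barcode. The libraries differed in composition: Gm42418, a locus overlapping ribosomal RNA, took 1.38% of UT and 14.5% of IMQ UMIs, and the median of 8068 genes with at least 10 UMIs had a log2 IMQ over UT ratio of -0.60. Ratios below are therefore of UMIs scaled to 1e6 per library (CPM) and, where said, relative to that median gene. All 7 fibroblast markers were detected in both libraries, at 100002 CPM in UT and 162836 CPM in IMQ summed. The sort should have removed leukocytes, yet 19 leukocyte markers summed to 1849 UMIs in UT and 143 in IMQ (2 and 6 of the markers at 0), and 7 keratinocyte markers to 1935 and 5 UMIs (0 and 5 at 0). Their part in the results was not tested beyond the subsets of cells given below.

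Per library total, Ctla2a and Ctsk had higher levels in IMQ, Ctsk except among cells of 500 or more genes. Of the 82399 IMQ UMIs in those cells, 39288 lay in the fibroblast-like clusters described further on. Cst3 and Ctsb had lower levels in IMQ, Ctsb except under scalings that set most genes level. Ctsl, Ctsz and Ctsd had ratios whose intervals included 0 under the main filters. The 8 members together made 0.88% of UT UMIs (9599) and 1.20% of IMQ UMIs (5318). In UT the order of counted molecules was Ctsk, Ctsl, Cst3, Ctsb, Ctla2a, Ctsz, Ctsd and Lgmn. In IMQ Ctla2a stood behind Ctsk alone, ahead of Ctsl and Cst3. These counts are of transcript 3′ ends and are not divided by length. Among neighbours in the UT order the intervals of each pair were apart, and in IMQ those of Ctsz (239.4 to 342 CPM) and Ctsd (190.1 to 282.5 CPM) overlapped.

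**Figure D1:**
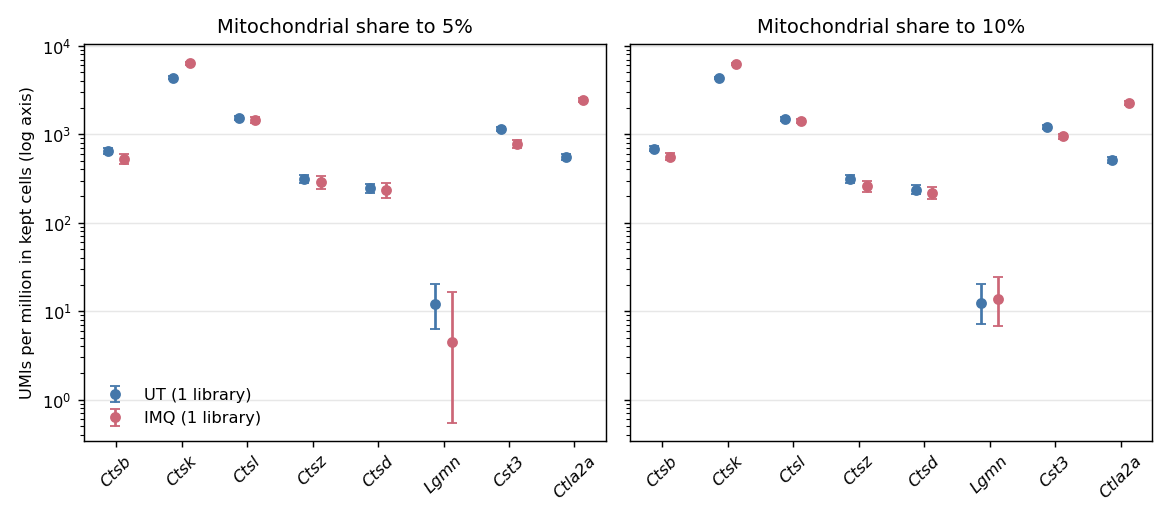
Level of each gene in UT and IMQ in CPM on a log axis, with cells up to 5% (left) or 10% (right) mitochondrial UMIs. Points are single libraries and bars are exact 95% Poisson intervals; Ctla2a stands at 550.0 CPM in UT and 2434 in IMQ on the left, and the order of the genes is alike in both panels.

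Ctsk, which encodes cathepsin K, a collagenase best known from osteoclasts, was the most abundant member in both libraries. It had 4767 UMIs in UT (4384 CPM, 4261 to 4510) and 2797 in IMQ (6326 CPM, 6094 to 6565). The IMQ level was 1.44-fold that of UT (log2 0.53, interval 0.46 to 0.60), or 1.13 above the median gene on the log2 scale. Ranked by count among all genes, Ctsk was number 23 in UT and number 9 in IMQ. The difference depended on which cells were counted: among cells with 500 or more genes the direction turned, with 4317 CPM in 298 UT cells and 3422 CPM in 36 IMQ cells (log2 -0.33). Cells with under 300 genes had 3976 CPM in UT and 7156 CPM in IMQ, and those from 300 to under 500 genes 4647 and 6782 CPM. In the fibroblast-like cells of 500 or more genes, a subset chosen after the data were seen, the log2 ratio was 0.062 (265 UT and 27 IMQ cells). That subset held 425748 of the 609931 UT UMIs at this depth, but 39288 of the 82399 IMQ UMIs. The unnamed cluster 4, described further on, had Ctsk at 608 CPM in both libraries, and its 7 IMQ cells had a median of 5689 UMIs. The part of the remaining cells in the turned direction was not tested.

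Ctsl, cathepsin L, a broad endopeptidase of the lysosome, followed Ctsk in UT and both Ctsk and Ctla2a in IMQ. It had 1667 UMIs in UT (1533 CPM, 1460 to 1609) and 636 in IMQ (1438 CPM, 1329 to 1555), a log2 ratio of -0.09 (-0.23 to 0.04). Measured against the median gene it stood 0.51 higher in IMQ, and its ratio turned positive with TMM scaling (0.38), which sets the bulk of genes level. In the fibroblast-like clusters alone, described further on, the interval of the Ctsl ratio lay below 0 (-0.20, -0.33 to -0.061). Ctsz, cathepsin Z, a carboxypeptidase, behaved alike at lower counts, with 339 UMIs (311.8 CPM) and 127 UMIs (287.2 CPM) and a log2 ratio of -0.12 (-0.42 to 0.18; 0.36 with TMM scaling). With cells up to 10% mitochondrial UMIs its ratio was -0.27, with an interval below 0 (-0.52 to -0.023).

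Ctsb, cathepsin B, an endopeptidase that also removes C-terminal dipeptides, was lower in IMQ per library total but not relative to other genes. It had 703 UMIs in UT (646.5 CPM, 599.6 to 696.1) and 234 in IMQ (529.2 CPM, 463.6 to 601.6), a log2 ratio of -0.29 (-0.51 to -0.07). Against the median gene the same counts gave 0.31, and TMM and median-of-ratios scaling gave 0.19 and 0.18, so the direction rests on the scaling.

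Ctsd, cathepsin D, the main aspartic protease of the lysosome, had 266 UMIs in UT (244.6 CPM, 216.1 to 275.9) and 103 in IMQ (232.9 CPM), a log2 ratio of -0.07 (-0.41 to 0.26; 0.41 with TMM scaling). Lgmn, legumain, which cleaves after asparagine and processes other cathepsins, was near the limit of detection, with 13 UMIs in 12 UT cells and 2 UMIs in 2 IMQ cells. Its ratio of 0.38 (log2 -1.40) had an interval of -4.59 to 0.74, and with cells up to 10% mitochondrial UMIs the counts were 16 and 11 (log2 0.14). No direction could be given for Lgmn at this depth.

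Cst3, cystatin C, the main secreted inhibitor of papain-type cathepsins, was the member with the clearest lower level in IMQ per library total. It had 1246 UMIs in UT (1146 CPM, 1083 to 1211) and 343 in IMQ (775.7 CPM, 695.8 to 862.3), a log2 ratio of -0.56 (-0.74 to -0.39). That lay 0.035 above the ratio of the median gene, and with TMM scaling the ratio was -0.086. In cells up to 10% mitochondrial UMIs the log2 ratio was -0.35, where 1 IMQ cell held 92 of the 760 Cst3 UMIs.

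Ctla2a, first found as a transcript of activated T cells and counted here in sorted Pdgfra-lineage cells, differed most of the members in both size and spread over cells. It had 598 UMIs in UT (550.0 CPM, 506.8 to 595.9) and 1076 in IMQ (2434 CPM, 2290 to 2583). The IMQ level was 4.42-fold higher (log2 2.15, 2.0 to 2.29), 2.74 above the median gene, and 99.4% of the 8068 genes had a lower ratio. It was higher in IMQ under every alternative tried, from 1.59 with cells of 500 or more genes to 2.62 with TMM scaling. For cells up to 10% mitochondrial UMIs the counts were 652 and 1829 (log2 2.17).

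**Figure D2:**
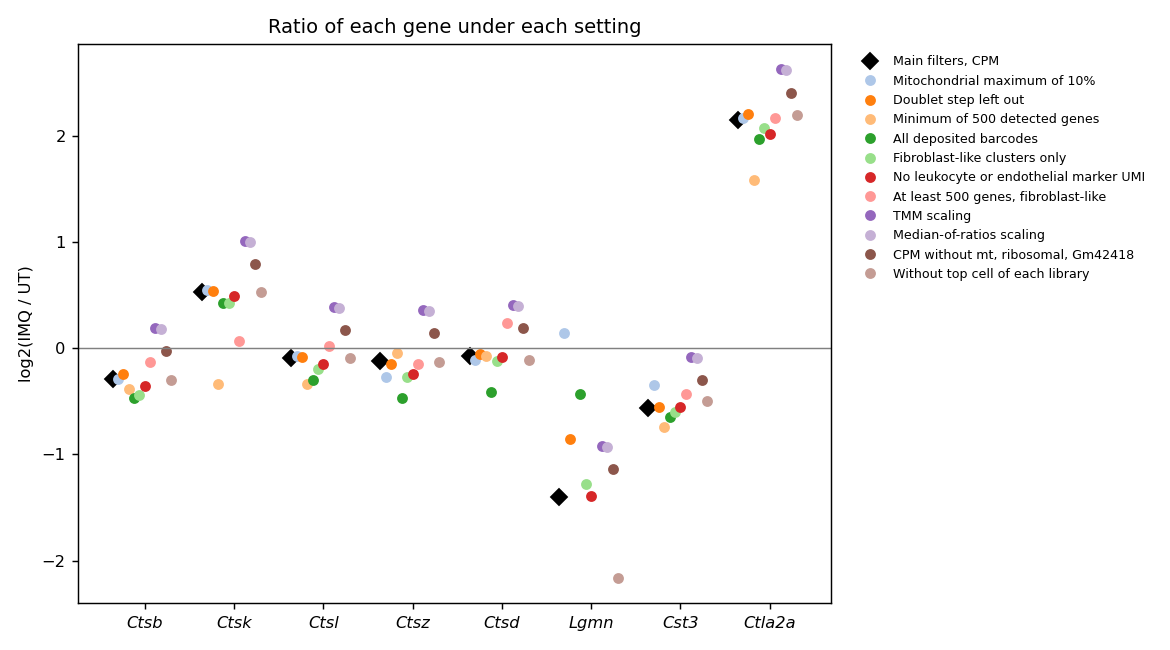
The log2 ratio of IMQ over UT (vertical axis) of each gene under the main filters (black diamonds) and each alternative set of cells or scaling (coloured points). Ctla2a lies between 1.59 and 2.62, Ctsk falls to -0.33 with cells of 500 or more genes, and Ctsb, Ctsl, Ctsz and Ctsd cross 0 between scalings.

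The background for these ratios was uneven. Of the 8068 genes, 304 (3.77%) were at least 2-fold higher in IMQ and 2642 (32.7%) at least 2-fold lower, and with 10% mitochondrial UMIs the shares were 3.25% and 32.3%. Among the 8 members 1 was at least 2-fold higher (Ctla2a) and 1 lower (Lgmn, on 15 UMIs in all), with a median of -0.10 against -0.60 for all genes. The members had been chosen on these ratios, so the counts are given beside the background without a reading.

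More of the protease pool was Ctsk in IMQ than in UT, except among cells of 500 or more genes. Ctsk was 61.5% of the 7755 UMIs of the 6 proteases in UT (60.4 to 62.6, Clopper-Pearson) and 71.7% of the 3899 in IMQ (70.3 to 73.2). Ctsl was 21.5% and 16.3% of them, Ctsb 9.07% and 6.00%, Ctsz 4.37% and 3.26%, and Ctsd 3.43% and 2.64%. In cells of 500 or more genes Ctsk was 61.1% of the protease UMIs in UT (59.6 to 62.6) and 60.4% in IMQ (55.8 to 64.9), with overlapping intervals. In cells with under 300 genes the shares were 66.3% and 73.5%, and in those from 300 to under 500 genes 60.7% and 72.9%. These shares are free of the library total, and so are the ratios that follow.

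The 6 proteases outnumbered the 2 inhibitors in both libraries, by less in IMQ. There were 4.21 protease UMIs for each inhibitor UMI in UT and 2.75 in IMQ (log2 difference -0.61, -0.73 to -0.50). The inhibitors moved apart from each other: against Cst3 alone the proteases went from 6.22 to 11.4 UMIs per UMI, while Ctsl against Ctla2a went from 2.79 to 0.59. Ctla2a was 0.48 of Cst3 in UT and 3.14 times Cst3 in IMQ (log2 difference 2.71, 2.48 to 2.93). With 10% mitochondrial UMIs the protease to inhibitor difference was -0.60.

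Shares of cells were compared after each cell was thinned to 400 UMIs, which kept 960 UT and 515 IMQ cells and left out 73 and 33 shallower ones. Of the UT cells 67.0% then held a Ctsk UMI (63.9 to 69.9), against 84.5% of those from IMQ (81.0 to 87.5), and 77.6% and 88.9% before thinning. Ctla2a was present in 11.4% of UT (9.42 to 13.5) and in 39.6% of IMQ cells (35.4 to 44.0), and 16.0% and 48.4% before thinning. So in IMQ Ctla2a was found in more cells, while Ctsk was already in most UT cells.

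The remaining shares followed the levels. Ctsl was in 42.9% of UT and 42.1% of IMQ cells (60.8% and 58.0% before thinning), and Cst3 in 32.4% and 25.8% (51.6% and 38.1%). Ctsb was in 20.5% and 16.1% (38.2% and 28.8%), Ctsz in 11.5% and 10.7% (23.0% and 17.5%), and Ctsd in 8.54% and 8.74% (19.0% and 16.4%). Lgmn was in 6 UT cells and 1 IMQ cell after thinning. The intervals of the UT and IMQ shares overlapped for Ctsb, Ctsl, Ctsz, Ctsd, Lgmn and, narrowly, Cst3.

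**Figure D3:**
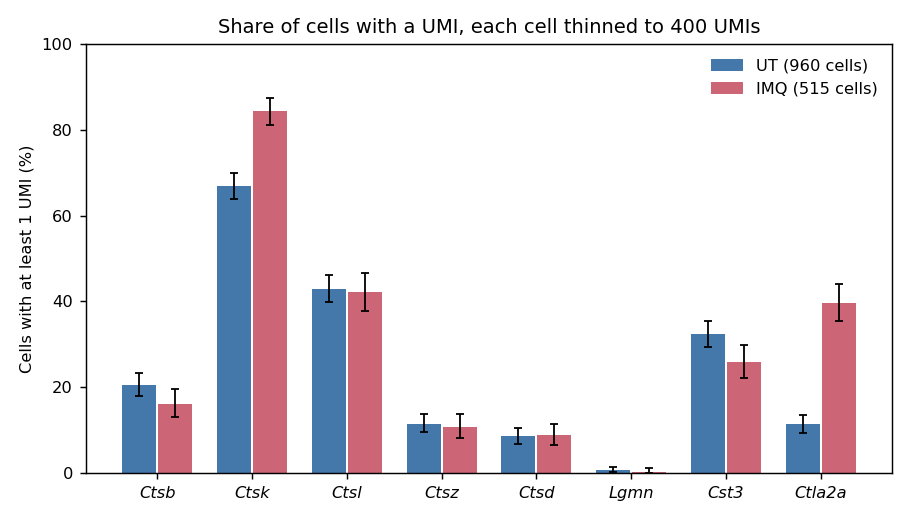
Share of cells with at least 1 UMI of each gene (vertical axis, percent) after thinning to 400 UMIs, in 960 UT and 515 IMQ cells, with exact 95% binomial intervals. The Ctla2a bars stand at 11.4% and 39.6% and the Ctsk bars at 67.0% and 84.5%.

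Free RNA can place UMIs in cells that do not express a gene, and no profile of empty droplets was measured here. The nearest comparison here was the leukocyte-like cluster described below, although leukocytes can make some of either transcript. It also had 5 of 7 fibroblast markers in 20% of its cells, and whether it held mixed cells was not tested. There Ctla2a was in 0 of 25 UT cells, which allows a share of up to 12%, and in 3 of 10 IMQ cells (30%, 6.67 to 65.2). Ctsk was in 2 of those 25 UT cells and 3 of the 10 IMQ cells, at median depths of 411 and 562 UMIs before thinning. In barcodes with under 200 genes, which the filters remove, Ctla2a was in 5 of 64 UT and 778 of 3621 IMQ barcodes. The IMQ share of Ctla2a in all kept cells therefore lay inside the interval of the 10 leukocyte-like cells, and how much of it free RNA made was not tested.

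Among cells with a Ctla2a UMI the number per cell differed less than the share, with 2.22 thinned UMIs per positive cell in UT and 2.77 in IMQ. The UT counts were concentrated in few cells: the top 10% of cells (104) held 89.8% of Ctla2a UMIs in UT and the top 10% (55) held 56.3% in IMQ, before thinning. For Ctsk those shares were 42.3% and 29.9%. The variance of thinned Ctla2a UMIs was 4.64 times their mean in UT and 4.37 times in IMQ, against 2.31 and 1.83 for Ctsk and values up to 1.39 for the other members, so Ctla2a was unevenly spread in both libraries.

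**Figure D4:**
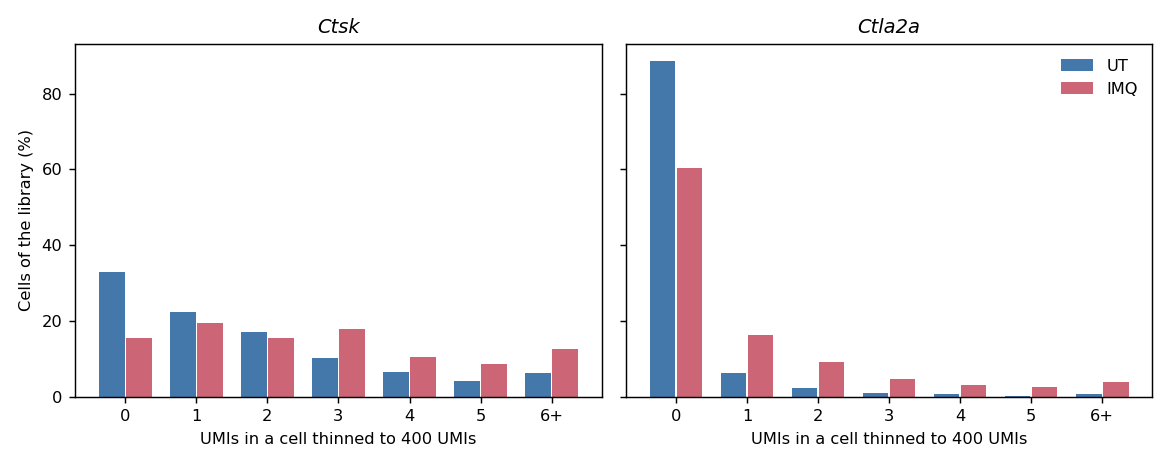
Share of cells of each library (vertical axis, percent) by the number of Ctsk (left) and Ctla2a (right) UMIs in a cell thinned to 400 UMIs, the last bar holding 6 or more. Cells without a Ctla2a UMI make up 88.6% of UT and 60.4% of IMQ, and the IMQ Ctla2a bars are taller from 1 UMI upward. For Ctsk the IMQ bars are shorter from 0 to 2 UMIs and taller from 3 upward.

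Cell by cell, a protease and an inhibitor UMI were found together in a larger share of IMQ cells. Ctsk and Ctla2a were also each found in a larger share of IMQ cells. Whether the meeting exceeded what those shares give was not tested. After thinning, a protease UMI and an inhibitor UMI were both present in 33.9% of UT (30.9 to 37.0) and in 52.4% of IMQ cells (48.0 to 56.8). Cells with a protease but no inhibitor UMI were 47.8% of UT and 38.1% of IMQ cells, and those with no protease UMI 18.3% and 9.51%. Both inhibitors were seen in 4.38% of UT and 9.51% of IMQ cells. Cells with at least 3 different proteases were 16.5% of UT (14.2 to 19.0) and 15.1% of IMQ cells (12.2 to 18.5), and these intervals overlapped.

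Most pairs of members met in more cells than the product of their shares gives. In UT 26 of the 28 pairs lay above the product, with a median of 1.19 times the product. In IMQ 19 of 28 did, with a median of 1.06. The same count was not made over pairs of other genes, so it is given without a reading about the members. The cells came from all clusters described below, between which the levels of members differed. Leaving out pairs with Lgmn, the medians over 21 pairs were 1.12 and 1.06. The pair with the largest excess in cells was Ctsk with Ctsl, found in 329 UT cells against 276 from the product and in 198 IMQ cells against 183, with Pearson r of 0.23 and 0.15 between their thinned UMIs. Ctsl and Ctsd met in 47 UT cells against 35.2 and in 28 IMQ cells against 19.0. Ctsl and its relative Ctla2a met in 59 UT cells against 46.8 and in 95 IMQ cells against 86.0, and the inhibitors Cst3 and Ctla2a in 42 against 35.3 and in 49 against 52.7. Some of these moved with the setting. With 10% mitochondrial UMIs Ctsl and Ctla2a met in 134 IMQ cells against 136.6, and 18 of 28 IMQ pairs lay above the product. At 600 UMIs Cst3 and Ctla2a met in 56 IMQ cells against 51.7, and 15 of 21 IMQ pairs lay above. There the r of Ctsk with Ctsl was 0.28 in UT and 0.036 in IMQ. These correlations are across cells of 1 library, which share its depth and free RNA, and carry no test.

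Genes whose counts over cells were most like those of Ctsk were matrix genes. Here r was taken over log-transformed thinned UMIs, while the r of pairs above was over thinned UMIs without that step. Over 581 genes and 960 UT cells, Ctsk was closest to Dcn (decorin, r 0.42), Col1a1 (0.41) and Col1a2 (0.40), with 0.36, 0.30 and 0.29 in the 515 IMQ cells. Ctsl was closest to Dcn (0.30), Ctsk (0.25) and Gsn (0.25), with 0.19, 0.17 and 0.19 in IMQ. For Ctla2a the nearest genes in UT were Gpx3 (0.27), Pi16 (0.26) and Cilp (0.20), and in IMQ these had 0.04, -0.02 and 0.02. The other members had no gene above 0.19 in UT.

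Clustering after integration, without the members among the variable genes, gave 5 clusters. Clusters 1 (407 UT and 262 IMQ cells, led by Pi16, Tnxb and Cilp), 2 (282 and 184, led by Gpha2, Stmn2 and Zfp704) and 3 (287 and 85, led by Coch, Fmod and Igfbp4) had at least 6 of 7 fibroblast markers in 20% of cells and were called fibroblast-like. Cluster 4 (32 and 7 cells, median 3808 UMIs), led by Malat1 and keratins, also had 7 of 7 in 20% of its cells. It stayed unnamed because 4 keratinocyte markers were enriched but only 1 of them was in 20% of its cells, short of the 3 required. Cluster 5 (25 and 10 cells), led by Cd74 and class II genes, was leukocyte-like, though it too had 5 of 7 fibroblast markers in 20% of its cells.

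Ctla2a was higher in IMQ in each fibroblast-like cluster, with intervals that did not overlap. It had 781.9 CPM in UT and 3129 in IMQ in cluster 1, 377.0 and 2381 in cluster 2, and 568 and 1888 in cluster 3. Cluster 1 was the highest of the 3 in both libraries. Cluster 4 had 24 Ctla2a UMIs in UT and 0 in IMQ.

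Ctsk was spread over a wide range between clusters. It had 6075 and 6961 CPM in cluster 1, 5448 and 8051 in cluster 2 and 2677 and 4633 in cluster 3, and was higher in IMQ in each. In cluster 4 it was 608 CPM in both libraries. Ctsl had its highest level in cluster 1 (2137 and 1743 CPM, with intervals apart), followed by cluster 2 (1566 and 1541), cluster 3 (1098 and 944) and cluster 4 (405 and 380), and Cst3 was between 717 and 1312 CPM in the 3 fibroblast-like clusters. The 66 Cst3 UMIs of cluster 5 in UT lay in 2 cells, 62 of them being the most that any kept UT cell held.

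**Figure D5:**
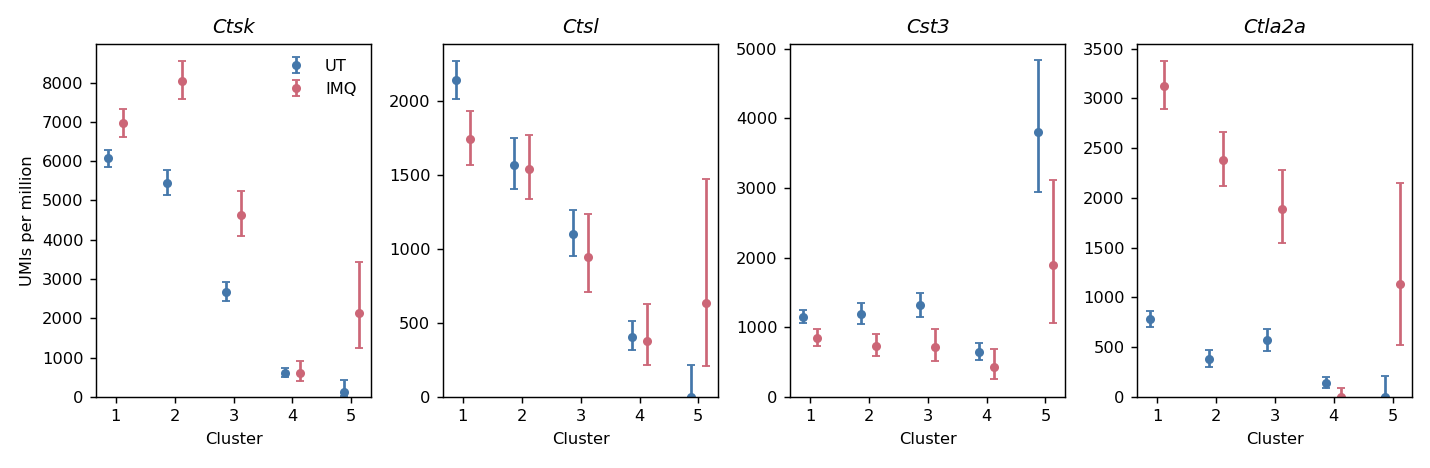
Level of 4 genes (CPM, linear axes) in each cluster of UT and IMQ cells, with exact 95% Poisson intervals. In clusters 1 to 3 Ctla2a and Ctsk are higher in IMQ, and in clusters 4 and 5, which hold few cells, intervals are wide or counts are 0.

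Leaving out every cell with a leukocyte or endothelial marker UMI kept 949 UT and 507 IMQ cells and gave log2 ratios of 2.02 for Ctla2a, 0.49 for Ctsk and -0.55 for Cst3. In fibroblast-like clusters alone they were 2.07, 0.42 and -0.60. Across mitochondrial shares, Ctla2a had 617 CPM in UT and 2549 in IMQ in cells up to 2.5%, 455 and 2440 from 2.5% to 5%, and 250.1 and 2104 from 5% to 10%. These bands were taken before doublet removal. In UT the Ctla2a level was lower where the mitochondrial share was higher, with intervals apart. In IMQ the intervals of neighbouring bands overlapped (2352 to 2758, 2237 to 2656 and 1962 to 2254 CPM). Within each band the level was higher in IMQ.

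Other genes of the same compartments, in lists drawn up with results of these libraries known, were mostly measured at lower counts. Of 13 other lysosomal proteases 9 reached 10 UMIs, 1 was at least 2-fold higher in IMQ (Ctsc, 5 UMIs in each library) and 2 were lower, with a median of -0.17. Over all genes 3.77% were higher and 32.7% lower by that measure, with a median of -0.60. Ctsh, an aminopeptidase of the papain family, was the most abundant with 1014 CPM in UT and 936.3 in IMQ (log2 -0.12, -0.28 to 0.05). Ctsa, which protects lysosomal glycosidases, was one of the lower genes at 108.5 and 40.7 CPM (log2 -1.41, -2.22 to -0.69), and for Ctss 28 of 33 UT UMIs lay in 1 cell.

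The other proteases with at least 50 UMIs lay on either side of 0. Cathepsin F (Ctsf) had 105.8 CPM in UT and 133.4 in IMQ (log2 0.34, -0.14 to 0.80). The carboxypeptidases Scpep1 and Cpq had log2 ratios of -0.69 (-1.11 to -0.29) and -0.17 (-0.45 to 0.10). Relative to the median gene these were 0.93, -0.09 and 0.43.

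Of 20 further genes listed with the cysteine protease inhibitors 3 reached 10 UMIs, none was 2-fold higher and 2 were lower in IMQ (3.77% and 32.7% of all genes). In both libraries 12 had 0 UMIs. Cstb, the intracellular cystatin B, was lower in IMQ, at 204.2 CPM in UT and 79.2 in IMQ (log2 -1.37, -1.93 to -0.85). Cst6, the other lower one, had 27 UMIs in UT, 15 of them in 1 cell, and 1 in IMQ. Serpinb6a, a serpin of the cytosol and not a cystatin, had 611.6 and 563.1 CPM (log2 -0.12). Of the 5 inhibitors with at least 10 UMIs, Ctla2a had the higher level in IMQ, for which it had been chosen.

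Of 28 genes for lysosomal sorting, acidification, membrane and hydrolases 25 reached 10 UMIs, with a median log2 ratio of -0.25, 1 at least 2-fold higher and 2 lower, against a median of -0.60 and shares of 3.77% and 32.7% over all genes. Among membrane proteins and activators Cd63 had -0.22, Lamp1 -0.35, Lamp2 -0.21, Psap (the saposin precursor) -0.23, Npc2 (a cholesterol carrier) -0.19 and Grn -0.25. The hydrolases ranged more widely, with Hexa at -0.02, Asah1 at 0.10, Gaa at -0.52 and Gusb at -0.92 among those given here.

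The proton pump and its accessory proteins had log2 ratios of -0.34 (Atp6v0e), -0.29 (Atp6v1g1), -0.74 (Atp6ap1) and 0.02 (Atp6ap2). Scarb2, the receptor that carries glucocerebrosidase to lysosomes, had 0.47 (-0.45 to 1.34) and Gnptg, a subunit of the enzyme that makes the mannose phosphate tag, had -0.81. The genes 2-fold apart were counted on few UMIs: Gnptab 2 and 8, M6pr 37 and 4, and Tfe3 22 and 4.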

How the data were processed

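Dermal cells of 1 UT and 1 IMQ library were profiled with the Chromium v3 3′ kit. The authors deposited raw UMI counts per gene and barcode, made with Cell Ranger (3.0.0 in the UT and 3.1.0 in the IMQ matrix header) on mm10, and Cell Ranger and CASAVA are named in the submitters' processing notes. Whether counting used strand is not given in the sources used here.

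Barcodes with 200 to 5000 genes and at most 5% (alternative 10%) mitochondrial UMIs were kept. The top-scoring Scrublet barcodes (scanpy 1.11.5, 0.8% per 1000 barcodes) were removed as doublets, 12 in UT and 23 in IMQ. UMIs were summed per library and divided by the library total; the UT library had 1087337 and the IMQ library 442157 kept UMIs. Intervals are 95%: exact Poisson for sums, conditional binomial for ratios and Clopper-Pearson for shares (scipy 1.17.1), with a large-sample interval for ratios of ratios. No test was made, since each group was 1 library. Counts of genes past a 2-fold ratio used a pseudocount of 1 CPM and genes with at least 10 UMIs. A count of 0 was taken to allow 3. Shares used cells thinned to 400 UMIs. Cells were clustered with Seurat 5.3.0 (2000 variable genes, 30 anchor dimensions, 20 principal components, resolution 0.5), and TMM factors came from edgeR 4.0.16 on the deposited counts. The ratios with their intervals, the Poisson intervals and the thinning were tested on simulated data, and the other steps were not.

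Of the 31053 gene IDs 30934 matched GENCODE M21. All members and lists were chosen with earlier results of these data known. Named genes were the 8 members, list genes with at least 50 UMIs over both libraries, and the 3 genes with the highest r to each member in UT. List genes below 50 UMIs were named only where counted as 2-fold apart, after their values were seen. Residues were translated from GENCODE coding sequences, and the Ctsb promoter was not used here. Values of some genes in the lysosomal list are not reported here.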

Additional observations from a re-analysis of the deposited data

Results flagged for a closer look

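Barcodes outside the filters also carried the members. Of their levels in IMQ 7 had an interval above that of UT, 3 one below it and 14 one that overlapped it. The same count was not made over all genes, and the members had been chosen on their ratios. In barcodes with 5% to 10% mitochondrial UMIs Ctsk was at 6202 CPM in IMQ (UT 3893, 3632 to 4168) and Ctla2a at 2104 (UT 250.1, 187.3 to 327.1). With over 10% mitochondrial UMIs Ctsk was at 5904 CPM (UT 2454), Ctsl at 1288 (UT 701, on 20 UMIs) and Ctla2a at 1540 (UT 175.3, on 5 UMIs). In barcodes with under 200 genes Ctsk was at 4302 CPM (UT 1583) and Ctla2a at 1365 (UT 184.1, on 5 UMIs), in 3621 IMQ and 64 UT barcodes. Those below were Ctsb at 585 CPM (UT 901, 778 to 1038) and Cst3 at 1092 (UT 1505, 1345 to 1680) with 5% to 10% mitochondrial UMIs, and Cst3 at 517 (UT 957, 625 to 1403) with under 200 genes. No group had the number of samples needed to look for a sample far from the others.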

How the results depend on the processing

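No paired analysis was possible because each group was 1 library and no test was made. Of 105 alternative values for the 8 ratios, the summed cysteine cathepsins and the protease to inhibitor ratio, 65 stayed inside the counting interval of the value reported and 36 left it. Another 4 changed sign from a value whose interval excluded 0, given next as reversed, and 12 of the values counted before changed sign from one whose interval included 0 (Ctsd, Ctsl, Ctsz and Lgmn). The reversed log2 ratios were Ctsb with TMM (0.19) and median-of-ratios scaling (0.18), and, with at least 500 genes a cell, Ctsk (-0.33) and the summed cysteine cathepsins (-0.33, against 0.32 as reported). With TMM and median-of-ratios scaling the values were 1.01 and 1.00 for Ctsk, 0.38 and 0.38 for Ctsl, 0.36 and 0.35 for Ctsz, 0.41 and 0.40 for Ctsd, -0.086 and -0.10 for Cst3, 2.62 and 2.61 for Ctla2a, and 0.80 and 0.79 for the summed cathepsins. These scalings move the median gene from -0.60 to -0.15 and -0.16. With Gm42418, AY036118, ribosomal protein and mitochondrial UMIs taken out of the total, Ctsb was at -0.030, Ctsk 0.79, Ctsl 0.17, Cst3 -0.30, Ctla2a 2.40 and the summed cathepsins 0.58. At 500 genes or more Ctsl was at -0.34, Cst3 -0.74 and Ctla2a 1.59, and in fibroblast-like cells of that depth, added after seeing the data, Ctsk was at 0.062, the summed cathepsins 0.028 and the protease to inhibitor ratio -0.90. With all deposited barcodes Ctsk was at 0.42, Ctsl -0.30, Ctsz -0.47, Ctsd -0.42, Ctla2a 1.97, the summed cathepsins 0.17 and the protease to inhibitor ratio -0.47. In fibroblast-like clusters Ctsk was at 0.42 and the summed cathepsins 0.21, and Cst3 at 10% mitochondrial UMIs was at -0.35. The causes were not tested. Lgmn gave no value at 500 genes or more, with 6 UMIs in UT and 0 in IMQ. Shares of cells moved with the depth kept: 14 of 16 left their interval without thinning and 13 of 16 at 600 UMIs, 3 with 10% mitochondrial UMIs and 0 without marker-positive cells.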

Other observations

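The IMQ library's kept cells had a higher summed level of 7 fibroblast markers (162836 against 100002 CPM) and a lower one of 6 pericyte and smooth muscle markers (74.6 against 152 CPM). Melanocyte markers had 0 UMIs in both libraries, adipocyte markers 0 and 1, Schwann markers 10 and 3, erythroid markers 9 and 0, and endothelial markers 54 and 11.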
